A study of Arabidopsis thaliana with 60 samples.

Results

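The genes described here are carried by the plastid genome of Arabidopsis thaliana and were measured on Affymetrix ATH1 arrays in 20 sets of leaves. A probe set was taken when the array annotation assigned it to 1 gene with a plastid locus tag, which gave 69 probe sets for 69 genes out of 22810 array features. The RefSeq annotation lists 84 protein-coding plastid locus tags with 78 distinct symbols. Another 8 plastid probe sets were left out because they are assigned to several gene copies (rps12, rpl2, rpl23, ycf2, ndhB, rps7 and ycf1). The genes were divided by symbol into 33 photosynthesis genes, 10 ndh genes, 20 gene-expression genes and 6 others (accD, clpP, ycf3, ycf4, cemA and ccsA).

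Chloroplasts keep a small genome that encodes core subunits of the photosynthetic complexes. The psa and psb genes encode subunits of photosystems I and II, pet genes the cytochrome b6f complex, atp genes the ATP synthase, and rbcL the large subunit of the carbon-fixing enzyme Rubisco. The ndh genes encode the chloroplast NDH complex, which carries cyclic electron flow around photosystem I, while rpo, rps, rpl and matK genes encode the plastid's own RNA polymerase, its ribosomal proteins and a splicing maturase. Each complex also holds subunits that are encoded in the nucleus and imported. Many plastid genes lie in clusters that are transcribed together and then cut and spliced into smaller RNAs, and during leaf senescence the chloroplast and its photosynthetic proteins are dismantled.

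The series compares leaves by position, age, part and growth condition, with 3 arrays in each of 20 sets and 60 arrays in all. All plants were labelled Col-0 except for 2 sets of the line gl1T, whose labels name Col-0 as the background for leaf 12. Cotyledons, leaves 1 and 2, leaf 4 at 1 cm in length (in Col-0 and in gl1T), rosette leaves 2, 4, 6, 8, 10 and 12, gl1T leaf 12, cauline and senescing leaves, and leaf 7 cut into petiole, proximal blade and distal blade, came from soil-grown plants in continuous light at 23 °C. Vegetative rosettes of sets 87, 89 and 90 grew in short days with 10 h of light at 22 °C, and the labels do not say how these 3 sets differ. A further set of leaves, called sucrose leaves here, grew in long days at 22 °C on MS medium with 1% sucrose. The labels say that the Col-0 leaf 4 samples of 1 cm carried soil, that rosette leaf 12 was about 1 cm long, and that the first array of rosette leaf 6 has leaf 4 in its tissue field. Whether plants or only hybridisations differ within a set is not given in them, and the p-values therefore cover array-to-array spread alone, which may be technical.

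The values are MAS5 signals scaled by the authors to a common trimmed mean, which came out between 100.006 and 100.011 on the 60 arrays. Signals of a given gene can be compared between arrays, whereas signals of different genes depend on their probes and are not set against each other. A difference was called when its adjusted p in a limma fit over 15808 probe sets was below 0.05 and its size was at least 1 on the log2 scale (log2 of signal plus 6.14, which understates changes of dim genes). A difference that passed the p threshold at any size is described as passing the test. As a check of the tissue, the senescence regulators WRKY6 and WRKY53 differed by 2.70 and 1.68 (log2) between senescing and rosette leaves. RCA, the Rubisco activase gene of green leaves, was bright enough to test, which does not show the tissue of any set. Only 4 of 17 marker genes had a named probe set, and the 1 root marker among them, EXPA18, was too dim to test.

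The array of rosette leaf 12 labelled replicate 2 stood apart in the plastid-encoded genes. It read 190.4 for psbA, the D1 reaction-centre protein of photosystem II, where the other 2 arrays of the set read 1740 and 1773. For psbD, the D2 protein, it read 207.9 against 1384 and 1309. Of the 69 genes, 67 were lower on this array than on the mean of its 2 mates, and 20 were lower by at least 1 (log2), against 0.506% of all tested probe sets. The median over the 69 genes was -0.55. The probe sets of mitochondrion-encoded genes moved the same way on this array, with 17 of 20 lower than on the mates, 3 lower by at least 1 and a median of -0.44. Psb and ndh genes were among the lowest, with psbC at -2.67, psbB at -2.20 and ndhD at -1.81, while several genes next to them, such as psbZ, read close to the other arrays. Over all probe sets its lowest correlation with a mate, replicate 1, was 0.9849, the lowest of the set. The mates correlated with each other at 0.9863 or above. In gl1T leaf 12 the lowest correlation within the set was 0.9813. No other array had more than 5 plastid genes off by 1. Results that involve rosette leaf 12 are given with and without this array.

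**Figure D1:**
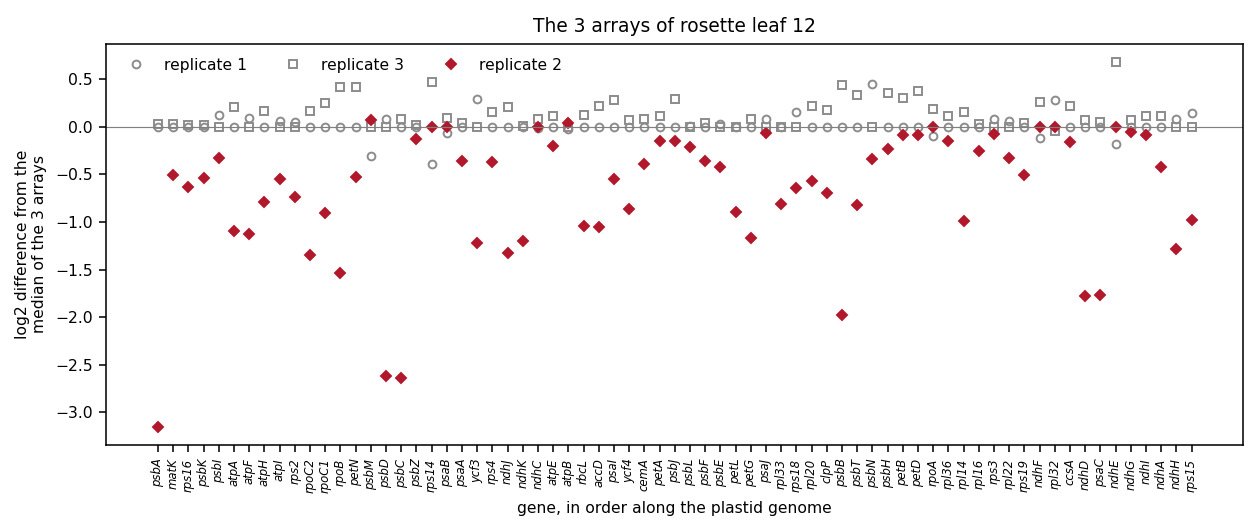
Log2 difference of each rosette leaf 12 array from the median of the 3 arrays of that set (vertical axis), for the 69 plastid-encoded genes in order along the plastid genome (horizontal axis). Replicate 2 (filled diamonds) lies below its mates (open symbols) for most genes, by more than 3 for psbA, where it read 190.4 against 1740 and 1773, and close to them for others.

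Plastid-encoded genes gave some of the brightest signals on the arrays. The median gene ranked at the 98.4th percentile of all features in its median array, and 67 of 69 genes lay above the 40th percentile on every array, the exceptions being rps14 and ndhF. All 69 passed the filter on dim probe sets. Across the 20 sets 59 of 69 genes differed with a span of at least 1 between the highest and the lowest set, beside 78.3% of all tested probe sets. The median span was 1.39 for the plastid-encoded genes and 1.58 for all tested probe sets. By class it was 1.25 for photosynthesis genes, 1.52 for ndh genes and 1.66 for gene-expression genes.

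A few genes varied far more than the rest. The widest spans were those of rps14, a protein of the small ribosomal subunit (4.34), petD, subunit IV of the cytochrome b6f complex (3.42), ndhF, an NDH membrane subunit (3.36), petN, a small cytochrome b6f subunit (2.76), ndhH (2.20) and rpoB, the beta subunit of the plastid RNA polymerase (2.18). The narrowest was that of psaB, a reaction-centre protein of photosystem I (0.61).

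The 3 classes followed one another in most sets and parted in a few. Each gene was expressed as its deviation from its own mean over the 20 sets, and the median over a class was taken. In the proximal blade part of leaf 7 all classes were high, at 0.43 for photosynthesis genes, 0.51 for ndh genes and 0.39 for gene-expression genes, and 32 of 69 genes had their highest mean there. In senescing leaves all were low, at -0.58, -0.63 and -0.93, and 40 of 69 genes had their lowest mean there. Rosette leaf 2 was also low, at -0.28, -0.30 and -0.48. Cauline leaves divided the classes, with photosynthesis genes at 0.08, ndh genes at 0.18 and gene-expression genes at -0.56. In short-day set 90 the ndh genes lay apart at -0.50, with photosynthesis genes at -0.14 and gene-expression genes at 0.12. In cotyledons the ndh genes were at 0.52, with the other 2 classes at 0.22 and 0.12.

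**Figure D2:**
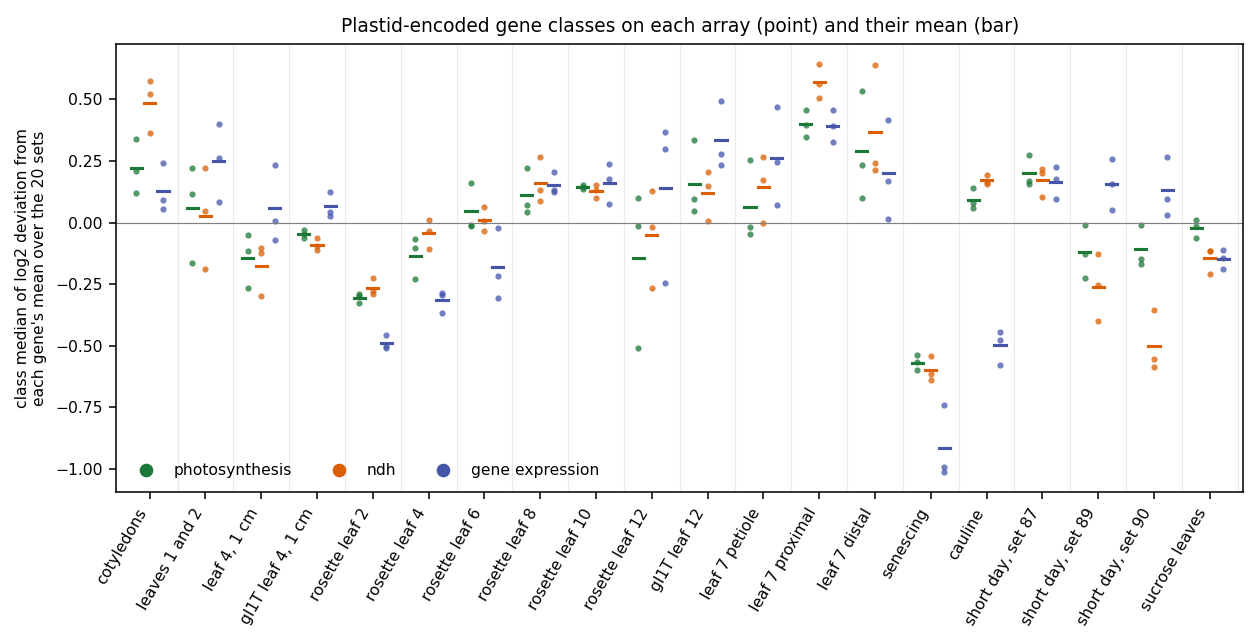
Median log2 deviation of each class from the genes' own means over the 20 sets (vertical axis), on each array (points) and averaged over the 3 arrays of a set (bars), for the sets on the horizontal axis. All 3 classes lie lowest in senescing leaves, and in cauline leaves the gene-expression class lies apart from the others, on every one of the 3 arrays.

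**Figure D3:**
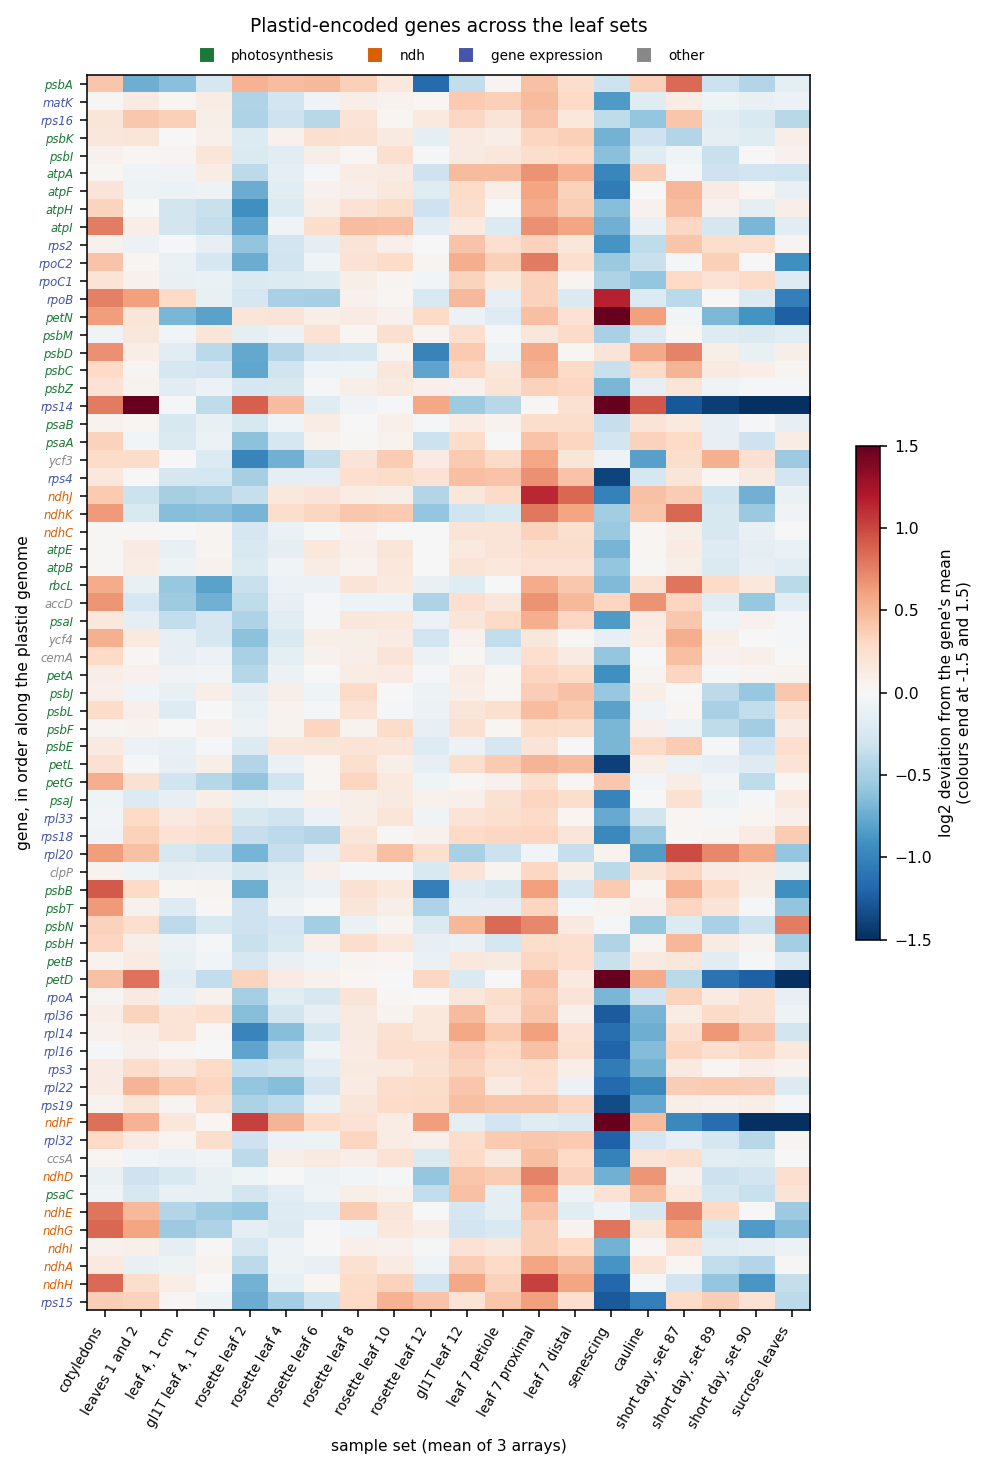
Log2 deviation of each of the 69 genes (rows, in order along the plastid genome, names coloured by class) from its mean over the 20 sets (columns, means of 3 arrays). Runs of neighbouring genes such as rpl36 to rps19 share a pattern, while rps14, petD and ndhF stand out from their neighbours in senescing, short-day and sucrose leaves. RpoB and petN, which are neighbours, stand out from the genes next to them in senescing and sucrose leaves.

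Along the rosette, genes of the plastid ribosome read higher in later leaves. The change was fitted as a straight line on leaf number over the 6 rosette leaf sets and is given as the fitted difference of leaf 12 from leaf 2, where leaf 12 was also the small leaf of 1 cm, so that position and size cannot be told apart. Of 20 gene-expression genes 17 passed the test as higher and 1 as lower, and their median was 0.67. Their class median was -0.48, -0.30 and -0.16 in leaves 2, 4 and 6. It was 0.16, 0.13 and 0.15 in leaves 8, 10 and 12. The leaf 12 value includes the array that stands apart, on which all 20 gene-expression genes read lower than on its mates (median -0.58). Whether the class rose further after leaf 8 can therefore not be read from these values. Photosynthesis genes had a median of 0.22 with 15 of 33 higher and 1 lower, and ndh genes a median of 0.24 with 6 of 10 higher. Over all 69 genes 41 passed as higher and 2 as lower, beside 36.8% and 35.9% of all tested probe sets, whose median was 0.01. With quantile normalisation the gene-expression median was 0.48, with 15 of 20 higher, and the photosynthesis and ndh medians were 0.04 and 0.08.

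At the threshold for calls 7 of 69 plastid-encoded genes changed with position, beside 23.0% of all tested probe sets (11.6% higher and 11.4% lower). The 6 that rose were rps15 (1.37, SE 0.13), ycf3 (1.35, SE 0.16), rpl14 (1.25, SE 0.15), rpl20 (1.06, SE 0.12), rpl16 (1.05, SE 0.09) and rpl22 (1.05, SE 0.08), with adjusted p from 3.34e-17 to 1.11e-10. Without replicate 1 of leaf 12 rpl22 stood at 0.9996 and without replicate 3 rpl20 at 0.94, under the threshold of size. With quantile normalisation 5 genes were called, 4 of them higher, and rpl16 (0.83) and rpl22 (0.80) lost their calls. In the plain difference of leaf 12 from leaf 2 rpl20 stood at 0.93 and rpl22 at 0.85. Of the 6 genes, 5 encode ribosomal proteins, and ycf3 encodes an assembly factor of photosystem I. The ribosomal gene rps15 read 205.6, 212.6 and 212.8 in the arrays of leaf 2 and 649.2, 293.8 and 586.4 in those of leaf 12. The signal of rpl16 was 1359 to 1609 in leaf 2 and 2741 to 3331 in leaf 12, with no overlap between the sets. For ycf3 the arrays read 381.7, 384.8 and 347.7 in leaf 2, 853.2, 887.3 and 811.5 in leaf 8, and 1232, 427.9 and 1004 in leaf 12.

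The only gene called lower was psbA (-1.35, SE 0.28, adjusted p = 3.41e-05), and this call rested on 1 array. PsbA read 2466, 2852 and 2840 in leaf 2, 1980, 2166 and 2166 in leaf 10, and 1740, 190.4 and 1773 in leaf 12. Without the array that stands apart its fitted difference was -0.60 (adjusted p = 0.000382), under the threshold of size. Without that array 7 genes were again called, 6 of them shared, with rpoC2 (1.19), a polymerase subunit, in place of psbA. Of 20 gene-expression genes 19 then passed as higher, with a median of 0.80. The other classes were higher too, with 20 of 33 photosynthesis genes (median 0.39), 7 of 10 ndh genes (median 0.31) and 5 of 6 others (median 0.39). Over all 69 genes 51 passed as higher and 2 as lower, beside 5704 and 5482 of 15808 tested probe sets.

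No nuclear gene for partners of these complexes was called along the rosette among those with a named probe set. The list of nuclear genes for plastid polymerases, RNA processing and complex subunits held 62 genes, of which 10 could be named on the array. NdhN, an NDH subunit, differed by 0.89, CLPP4, a subunit of the Clp protease, by 0.91, and AT5G15700, which encodes a phage-type RNA polymerase of plastids and mitochondria, by 0.71. The Clp subunit AT1G09130 differed by -0.26, and the other 6 by 0.18 to 0.46. All 10 passed the test below the threshold of size. Probe sets of mitochondrion-encoded genes, chosen by symbol as a comparison with another organelle after the annotation had been seen, had a median of -0.87 over 20 probe sets, with 16 lower and 1 higher.

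**Figure D4:**
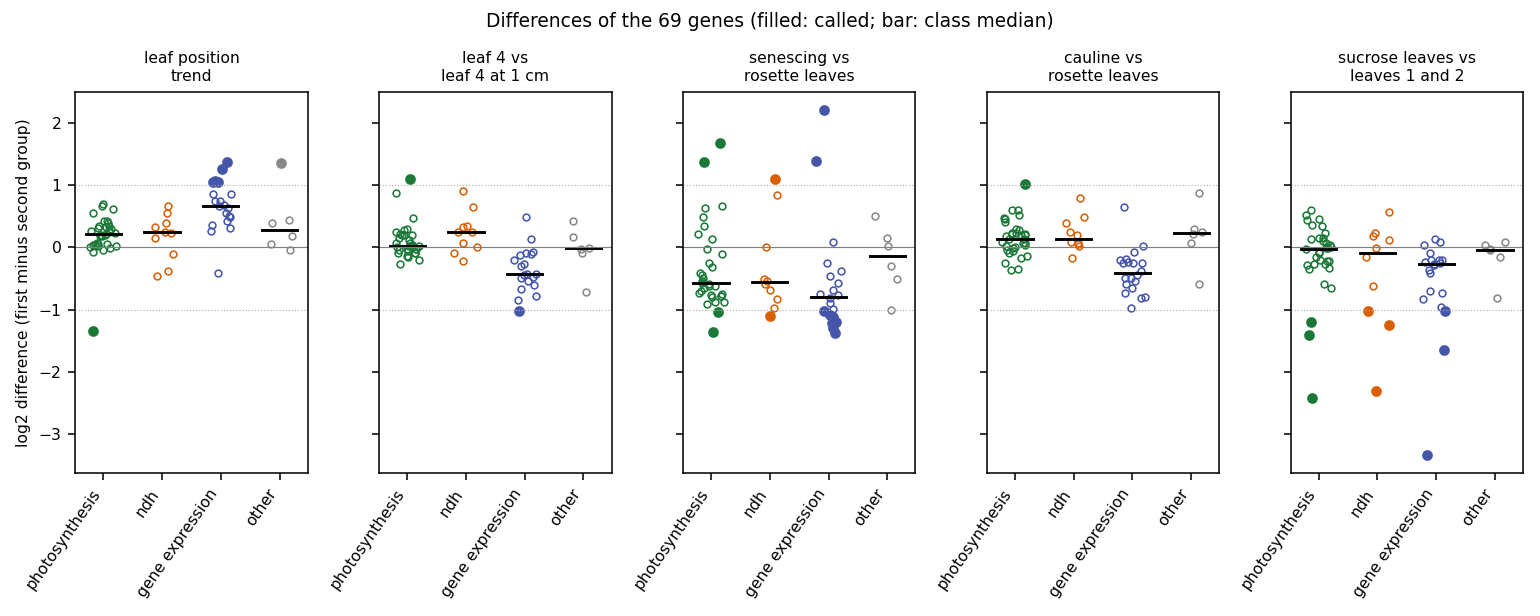
Log2 differences of the 69 genes (points, filled where called) by class in 5 comparisons, with class medians as bars and dotted lines at -1 and 1. The gene-expression class has its median at 0.67 in the leaf position trend, at -0.43 between later and 1 cm leaf 4, at -0.79 in senescing and at -0.42 in cauline leaves.

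Within leaf 4 the gene-expression genes read higher in the leaf of 1 cm than in the leaf of the later harvest. Rosette leaf 4 of the later harvest was compared with leaf 4 at 1 cm, and the labels report soil on the latter. Of 20 gene-expression genes 12 were lower in the later leaf and 1 was higher, with a median of -0.43, while no photosynthesis or ndh gene was lower and 4 of 33 and 3 of 10 were higher. Over all 69 genes 9 passed as higher and 13 as lower, beside 32.4% and 36.4% of all tested probe sets. The calls were psbA, higher by 1.09 (SE 0.34, adjusted p = 0.00358), and rpl22, a protein of the large ribosomal subunit, lower by 1.03 (log2 difference -1.03, SE 0.09, adjusted p = 4.12e-14), beside 24.5% of all tested probe sets. PsbA read 1169, 1160 and 1327 at 1 cm and 2499, 2833 and 2485 later. For rpl22 the range was 1913 to 2257 at 1 cm and 976 to 1104 later. The groups did not overlap for either gene. With quantile normalisation rpl22 differed by -0.73, the gene-expression median was -0.20 with 9 lower, 13 of 33 photosynthesis genes (median 0.18) and 5 of 10 ndh genes were higher, and the median of the other genes turned from -0.02 to 0.25. Without replicate 1 or 3 of the leaf at 1 cm, or replicate 2 of the later leaf, rpl22 lay just under the threshold of size, at -0.99, -0.99 and -0.98. The mitochondrion-encoded genes had a median of 0.92 in this comparison.

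Between cotyledons and leaves 1 and 2 psbA was the 1 called gene of 69, lower in leaves 1 and 2 by 1.14 on the log2 scale (-1.14, SE 0.34, adjusted p = 0.00325), beside 11.5% of all tested probe sets. It read 2103, 2623 and 2886 in cotyledons and 718.2, 1358 and 1502 in leaves 1 and 2, so the groups did not overlap. Without the lowest array of leaves 1 and 2, replicate 1, the difference was -0.81 and psbA was no longer called, and without replicate 2 accD, a subunit of acetyl-CoA carboxylase, was called as well (-1.0004). In all, 13 genes passed as lower (7 photosynthesis genes, 3 ndh genes and 3 of the others) and 5 as higher (4 gene-expression genes and 1 photosynthesis gene), beside 28.1% and 26.2% of all tested probe sets. With quantile normalisation 21 photosynthesis genes, 5 ndh genes, 5 others and 4 gene-expression genes were lower, and 2 gene-expression genes and 1 photosynthesis gene higher. The median of the gene-expression class was 0.10 and turned to -0.09 with that scaling.

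In senescing leaves most plastid-encoded genes read lower than in rosette leaves, and a few read much higher. For senescing leaves the partner was the average of the 6 rosette leaf sets. Of 69 genes 49 passed the test as lower and 10 as higher, beside 38.7% and 44.9% of all tested probe sets, and the median difference was -0.59, against 0.09 for all tested probe sets. By class the median was -0.58 for photosynthesis genes (22 of 33 lower), -0.56 for ndh genes (7 of 10 lower), -0.79 for gene-expression genes (17 of 20 lower) and -0.14 for the others (3 of 6 lower). All 6 ATP synthase genes were lower, between -0.92 and -0.50, as was rbcL at -0.62. Of 15 photosystem II genes 9 were lower and 2 higher, and of 6 cytochrome b6f genes 3 were lower and 3 higher. In bulk samples fewer cells of a type and less RNA per cell cannot be told apart. With quantile normalisation the medians were -0.09 for photosynthesis, -0.17 for ndh and -0.60 for gene expression, and that of the others turned to 0.37, while 11 photosynthesis genes were then higher and 12 lower.

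The genes called lower in senescing leaves were mostly ribosomal. Of 69 genes 10 were called lower and 5 higher, 15 in all, beside 33.1% of all tested probe sets (16.7% lower and 16.4% higher). The largest decreases were in rps4 (-1.38, SE 0.09), petL, a small cytochrome b6f subunit (-1.36, SE 0.11), rps19 (-1.30, SE 0.10), rpl32 (-1.21, SE 0.11) and rps15 (-1.20, SE 0.12), with adjusted p from 3.04e-20 to 3.94e-13. The ribosomal gene rps4 read 935.0, 1038 and 1051 in senescing leaves, and 1771, 2624 and 3569 as the lowest, median and highest of 18 rosette arrays. For petL the senescing arrays spanned 364.5 to 455.5 and the rosette arrays 641.8 to 1290. The ranges did not overlap for these genes. Also called lower were rpl36 (-1.13), ndhH, a subunit of the NDH complex (-1.11), rpl16 (-1.10), psaJ, a small subunit of photosystem I (-1.04), and rpl22 (-1.03). NdhH overlapped, with 75.8 to 131.2 in senescing leaves and 100.04 to 312.0 in the rosette arrays, and its lowest rosette value came from the array that stands apart. Without replicate 2 of senescing leaves psaJ stood at -0.93 and ndhH at -0.93.

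The 5 genes called higher were rps14 (2.21, SE 0.15), petD (1.68, SE 0.12), rpoB (1.38, SE 0.19), petN (1.37, SE 0.12) and ndhF (1.10, SE 0.20), with adjusted p from 8.51e-20 to 1.65e-06. They come from all 3 classes. The signal of rps14 was 501.4, 560.6 and 506.4 in senescing leaves, and 62.2, 96.4 and 194.3 as the lowest, median and highest rosette array, 4.63-fold on the scale of the fit. PetD read 422.2, 515.5 and 503.7 against 118.4, 143.7 and 200.6. RpoB read 255.1, 304.0 and 304.4 against 43.9, 107.1 and 188.6. None of the senescing arrays overlapped the rosette arrays in these 3 genes. PetN spanned 644.6 to 782.8 against 214.0 to 417.5, and ndhF 160.0 to 220.4 against 42.0 to 152.8, also without overlap. Without replicate 3 of senescing leaves ndhF stood at 0.98. RpoB and petN are neighbours, and of the same complexes petG of cytochrome b6f (0.48) and ndhG of NDH (0.83) also passed as higher. Others differed the other way: the polymerase genes rpoC1, beside rpoB, and rpoC2 by -0.38 and -0.46, petB, beside petD, by -0.26, and psbZ, beside rps14, by -0.65.

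Some of these calls depended on the arrays and on the partner set. Without replicate 2 of rosette leaf 12 the count was 17, with the same 15 genes and ndhJ (-1.05) and ccsA (-1.01) in addition. Against rosette leaf 2 alone, the oldest rosette leaf by position and the one with low ribosomal signals, only 5 genes were called, all higher, namely rps14 (1.59), petD (1.48), rpoB (1.41), petN (1.35) and psbB (1.13), while rps4 differed by -0.88, petL by -0.97 and rpl16 by -0.42. With quantile normalisation 6 of these 15 genes fell below the threshold of size, namely rps4 (-0.94), psaJ (-0.57), rpl36 (-0.72), rpl16 (-0.61), rpl22 (-0.81) and ndhF (0.92). The split of the calls was then 7 higher and 6 lower, with psbD (1.28), psbB (1.26) and ndhG (1.09) among the higher and ndhJ (-1.002) among the lower.

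Of the 10 nuclear genes with a named probe set, 7 were called lower in senescing leaves and 1 higher. PSAE-1 and PSAN of photosystem I differed by -2.61 and -2.85, PSBY of photosystem II by -2.02, ATPC1, the gamma subunit of the ATP synthase, by -1.35, and the NDH subunits NdhL and NdhN by -3.57 and -3.61. CLPP4 differed by -1.03. The nuclear-encoded polymerase gene AT5G15700 was called higher at 2.31, whereas AT5G42310, the RNA-binding protein CRP1 (-0.32), and AT1G09130, a Clp subunit (0.67), passed the test below the threshold of size. The mitochondrion-encoded genes had a median of 0.63, with 16 of 20 higher and none lower.

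In cauline leaves the ribosomal genes parted from the photosynthesis genes. Against the same rosette arrays 15 of 20 gene-expression genes passed as lower and 1, rps14, as higher, with a median of -0.42. All 7 genes of the large ribosomal subunit were lower, between -0.82 and -0.21, and 7 of 8 of the small subunit. In contrast 11 of 33 photosynthesis genes were higher and 1 lower (median 0.14), and 4 of 10 ndh genes were higher and none lower (median 0.14). Over all 69 genes 20 were higher and 17 lower, beside 39.1% and 32.2% of all tested probe sets. With quantile normalisation the medians were -0.32, 0.30 and 0.28, with 11 gene-expression genes lower and 20 photosynthesis genes higher. Against rosette leaf 2 alone the gene-expression median was -0.002 and the photosynthesis median 0.44. The difference between the 2 class medians on the same array was 0.55 to 0.64 in the 3 cauline arrays. In the 18 rosette arrays it was -0.31 to 0.29, so cauline and rosette arrays did not overlap.

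PsbD was the only gene called in cauline leaves, higher by 1.01 (SE 0.24, adjusted p = 0.000252), beside 14.6% of all tested probe sets. It read 2387, 1960 and 2195 in cauline leaves, and 207.9, 1198 and 1640 as the lowest, median and highest rosette array, without overlap. Without replicate 2 of rosette leaf 12 the difference was 0.87 and psbD was not called, while rps15 (-1.03) was. Without rosette leaf 2 replicate 1, rosette leaf 8 replicate 3 or cauline replicate 1 psbD also fell under the threshold of size, at 0.99, 0.997 and 0.95, and without cauline replicate 2 rps15 was called in addition (-1.05). With quantile normalisation psbD and accD (1.14) were called higher and rps15 (-1.07) lower, and against rosette leaf 2 alone psbD (1.34), ndhK (1.11), psbC (1.07) and accD (1.05) were called higher. Senescing, cauline and short-day sets share the rosette arrays as partner, so their differences are not independent of each other.

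Within leaf 7 no plastid-encoded gene was called between the petiole and the blade parts, beside 6.93% of all tested probe sets, or between the distal and the proximal blade part, beside 0.620%. At any size 23 genes were lower in the petiole and none higher, beside 24.1% and 29.5% of all tested probe sets. These were 13 of 33 photosynthesis genes, 5 of 10 ndh genes, 4 of 6 others and 1 of 20 gene-expression genes. The lowest were ndhK (-0.92), an NDH subunit, and atpI (-0.85), a membrane subunit of the ATP synthase, and both were called without replicate 1 of the petiole (-1.17 and -1.13). The median of the gene-expression class was -0.03 and turned to 0.05 with quantile normalisation. Between the distal and the proximal part only rpl36 (-0.35) and rpl22 (-0.34) passed, beside 16.6% of all tested probe sets. Arrays of the distal part spread widely, with psbD at 2500, 1252 and 1033 and ndhJ at 1632, 1069 and 913.7, whereas the proximal arrays lay between 2043 and 2315 and between 1358 and 1460. Without replicate 1 of the distal part, the highest of its set in these 2 genes, psbB (-1.38) and psaC (-1.16), an iron-sulphur subunit of photosystem I, were called lower in the distal part.

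Between the line gl1T and Col-0 no plastid-encoded gene of leaf 4 passed. None of 69 genes passed the limma test at any size, where 33.1% of all tested probe sets passed and 3.95% were called. None of the 69 had an unadjusted p under 0.05 in that test either. Differences ranged from -0.41 to 0.38. With quantile normalisation psaJ (0.29) and ndhI (0.19) passed as higher.

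In leaf 12 the comparison of gl1T with Col-0 turned on the array that stands apart. With all arrays 23 genes passed as higher and 5 as lower, beside 16.5% and 11.5% of all tested probe sets, and 3 were called, beside 3.82%. These were psbD (1.40, SE 0.32, adjusted p = 0.000494), psbC, a core antenna protein of photosystem II (1.11, SE 0.27, adjusted p = 0.00113), and rps14 (-1.11, SE 0.19, adjusted p = 5.56e-06). PsbD read 1727, 1850 and 2230 in gl1T and 1384, 207.9 and 1309 in Col-0. PsbC read 3280, 3608 and 3627 in gl1T and 2927, 466.5 and 3093 in Col-0. Without replicate 2 of Col-0 leaf 12, psbD differed by 0.51 (adjusted p = 0.097) and psbC by 0.22 (adjusted p = 0.203), and over all genes 3 passed as higher and 7 as lower. The call that kept its place was rps14, at -1.13 (adjusted p = 4.53e-05), with 79.4, 45.4 and 56.1 in gl1T and 99.5, 131.8 and 184.8 in Col-0. Without replicate 3 of Col-0 or replicate 2 of gl1T rps14 stood at -0.89 and -0.95, and with a pseudocount 4 times larger at -0.93. Without replicate 1 or replicate 3 of Col-0, when the array that stands apart is 1 of 2, 8 and 9 genes were called, among them psbA (1.30 and 1.32) and ndhD (1.28 and 1.31). The 5S rRNA control probe set of the array, which moved with rps14 over the sets as described below, averaged 44.8 in gl1T and 110.6 in Col-0, and its part in the result was not tested.

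The effect of gl1T was also compared between leaf 12 and leaf 4, with the same limit on leaf size in leaf 12. The difference of the 2 effects was called for psbD (1.63, SE 0.45, adjusted p = 0.00375), psbC (1.14, SE 0.38, adjusted p = 0.0182) and rpoB (1.13, SE 0.36, adjusted p = 0.0115), beside 8.20% of all tested probe sets. Without replicate 2 of Col-0 leaf 12 no plastid-encoded gene was called, and the 3 values were 0.74, 0.25 and 0.55. Without replicate 1 or 3 of that set 7 and 8 genes were called, and without replicate 2 of gl1T leaf 4 there were 5, with accD (1.01) and ndhH (1.05) in addition. RpoB stood at 0.96 without replicate 3 of gl1T leaf 12. At any size 11 of the 69 genes passed the limma test as higher and 2 as lower with all arrays, and 1 and 3 without replicate 2 of Col-0 leaf 12.

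The genes called between short-day rosettes and continuous-light rosette leaves were among the 5 called higher in senescing leaves. Photoperiod, temperature and organ differ together here and cannot be told apart. Of 69 genes 3 were called, all lower, beside 16.8% of all tested probe sets: rps14 (-1.74, SE 0.10), ndhF (-1.71, SE 0.13) and petD (-1.06, SE 0.08), with adjusted p from 4.24e-23 to 1.63e-17. The signal of rps14 was 20.1, 29.1 and 39.1 as the lowest, median and highest of 9 short-day arrays, and 62.2, 96.4 and 194.3 in the 18 rosette arrays. NdhF spanned 12.9 to 39.4 against 42.0 to 152.8, and petD 44.6 to 107.7 against 118.4 to 200.6. The ranges did not overlap in any of the 3, but with a pseudocount 4 times larger petD stood at -0.89. These 3 were called also without replicate 2 of rosette leaf 12. Against rosette leaf 2 alone 12 genes were called, these 3 and 9 higher ones led by rpl20 (1.46), rpl14 (1.44) and ycf3 (1.33). At any size 28 genes were higher and 15 lower, beside 43.3% and 37.3% of all tested probe sets. Gene-expression genes had 12 of 20 higher and 2 lower with a median of 0.21, and photosynthesis genes 11 of 33 higher and 10 lower with a median of -0.03. RbcL was higher by 0.47, and AT5G15700, the nuclear-encoded polymerase gene, by 1.24.

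Among the short-day sets, set 89 read lower than set 87 in the photosynthesis and ndh genes. Of 69 genes 30 passed, all lower, beside 42.7% of all tested probe sets that passed in either direction (4224 higher and 2525 lower). These were 19 of 33 photosynthesis genes (median -0.35), 6 of 10 ndh genes (median -0.40), 4 of 6 others and 1 of 20 gene-expression genes (median -0.07, turning to 0.03 with quantile normalisation). The median of all tested probe sets was 0.11 in this comparison. The calls were psbA (-1.17, SE 0.34, adjusted p = 0.00387) and ndhK (-1.10, SE 0.17, adjusted p = 7.13e-07), beside 3.25% of all tested probe sets. PsbA read 3620, 3334 and 3256 in set 87, the highest of any set, and 1793, 1336 and 1429 in set 89. NdhK read 1140, 1064 and 1055 in set 87 and 553.8, 428.8 and 537.6 in set 89. Neither gene overlapped. Without replicate 2 of set 89 ndhK stood at -0.98. With quantile normalisation ndhK differed by -0.91, and 9 photosynthesis genes were lower and 1 higher. Between set 90 and set 89 no gene was called, beside 0.430% of all tested probe sets, with psbI (0.32) and ndhG (-0.61) passing at any size, beside 13.4%.

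Sucrose leaves had lower signals than leaves 1 and 2 for the genes that were high in senescing leaves, and for some others. Medium, photoperiod, temperature and leaf differ together and cannot be told apart. Of 69 genes 9 were called, all lower, beside 7.21% of all tested probe sets (2.38% lower and 4.83% higher). The largest differences were those of rps14 (-3.34, SE 0.19), petD (-2.41, SE 0.15), ndhF (-2.32, SE 0.26), rpoB (-1.64, SE 0.25) and petN (-1.41, SE 0.15), with adjusted p from 3.88e-21 to 2.72e-07. The signal of rps14 was 12.8, 22.9 and 26.05 in sucrose leaves and 323.6, 247.6 and 215.4 in leaves 1 and 2. PetD read 43.1, 37.5 and 37.1 against 226.3, 274.2 and 210.1. NdhF read 22.2, 9.58 and 8.67 against 85.9, 88.3 and 87.4. RpoB read 64.5, 54.9 and 56.1 against 130.6, 237.3 and 239.5. PetN read 118.6, 87.8 and 98.4 against 265.7, 294.8 and 273.8. None of these 5 genes overlapped between the sets.

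The other calls in sucrose leaves were ndhG (-1.25), psbB, the CP47 antenna protein (-1.21), ndhE (-1.03) and rpl20 (-1.02). With quantile normalisation 7 genes were called, and rpl20 (-0.89) and ndhE (-0.91) lost their calls. Without replicate 3 of leaves 1 and 2 psbB stood at -0.91 and ndhE at -0.96. NdhE also fell under the threshold of size without replicate 2 of leaves 1 and 2 (-0.99) or replicates 1 or 3 of sucrose leaves (-0.96 and -0.92), and rpl20 without replicate 1 of leaves 1 and 2 (-0.999) or replicate 3 of sucrose leaves (-0.99). At any size 23 genes were lower and 3 higher, beside 20.7% and 25.6% of all tested probe sets. Of these 10 were gene-expression genes, with a median of -0.27. The medians of the other classes lay between -0.08 and -0.03 and turned positive with quantile normalisation, to 0.19 for photosynthesis, 0.12 for ndh and 0.16 for the others. As a group the photosystem II genes did not follow psbB, with psbA at 0.59 and a median of 0.002. That median does not describe each psb gene. PsbT, next to psbB on the plastid genome, correlated with psbB at r = 0.94 over the set means.

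The genes with the widest spans, rps14, petD, ndhF and petN, moved with each other, although they lie apart on the plastid genome. Over the 20 set means (log2), rps14 correlated with petD at r = 0.96, with ndhF at 0.94 and with petN at 0.85, and petD with petN at 0.92. Of the next widest genes, rpoB correlated with rps14 at 0.615. The other, ndhH, was called lower in senescing leaves (-1.11), where the rest were called higher. The correlations are descriptions over 20 sets that share the scaling of the arrays. The array's 5S rRNA control probe set was likewise highest in senescing leaves and lowest in sucrose leaves. Among the short-day sets, in contrast, it was lowest in set 87, where rps14, petD, ndhF and petN were highest. It averaged 271.5 in senescing leaves, 44.8 to 148.8 in the other sets from soil and continuous light, 5.29, 14.96 and 8.61 in the short-day sets 87, 89 and 90, and 3.73 in sucrose leaves. Over the set means it correlated with ndhF at r = 0.95 (Spearman's rho 0.90), with rps14 at 0.90 (rho 0.92), with petD at 0.87 (rho 0.89) and with petN at 0.76 (rho 0.83). Without the 2 sets farthest from the median of the control the values were 0.96, 0.91, 0.90 and 0.81. Within sets, the arrays' deviations correlated at 0.69 for rps14 and at 0.19 to 0.29 for the other 3 genes. Of 69 genes 3 exceeded r = 0.8 with this control, beside 0.702% of all tested probe sets, and the median over the 69 genes was -0.23. RpoB stood at 0.51 and ndhH at 0.12, and no gene exceeded 0.8 with the 25S rRNA control. The part of the control's signal in the results for rps14, petD, ndhF and petN was not tested.

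**Figure D5:**
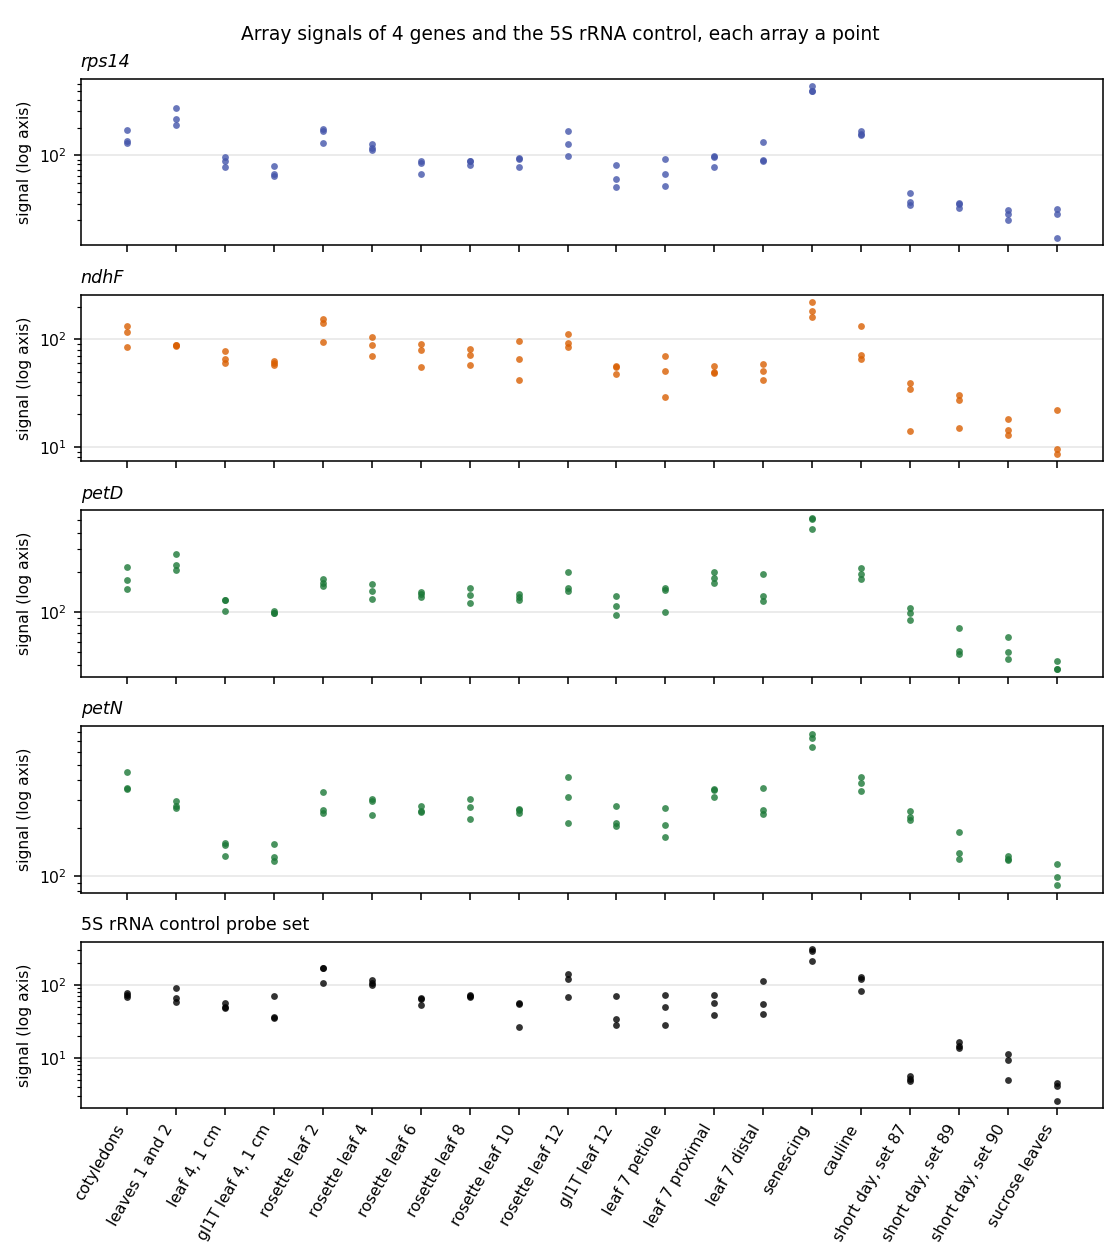
Signals (vertical axes, logarithmic) of rps14, ndhF, petD, petN and the 5S rRNA control probe set on every array (points) in the 20 sets (horizontal axis). All 5 are highest in senescing leaves and low in sucrose leaves. In the short-day sets rps14, ndhF, petD and the control are low. PetN is not low in each of them, with a log2 mean of 7.93 in set 87 against 7.28 in leaf 4 at 1 cm. The control averaged 3.73 to 14.96 in the short-day sets and sucrose leaves.

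Genes next to each other on the plastid genome often shared a pattern. Over the 20 set means the 64 pairs of neighbouring genes had a median correlation of 0.66, with 21 pairs (32.8%) at 0.8 or above, beside a median of 0.50 and 13.7% for all 2346 pairs of the 69 genes. These are descriptions, since pairs share genes and arrays. The run from rpl14 through rpl16, rps3, rpl22 and rps19, which encodes ribosomal proteins, had neighbour correlations of 0.94, 0.92, 0.94 and 0.89. The neighbours atpE and atpB, subunits of the ATP synthase that lie in 1 transcription unit, reached 0.99, psbB and psbT 0.94, psbJ and psbL 0.91, psbD and psbC 0.88, and ndhJ and ndhK 0.84. All pairs within the gene-expression class had a median of 0.77, against 0.51 within photosynthesis and 0.55 within ndh. Values without replicate 2 of rosette leaf 12 were close to these, with 0.67 for neighbours and 0.78 within gene expression.

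Some neighbours parted, with 16 of the 64 pairs below 0.2. PetB and petD, which are known to be transcribed together with psbB, psbT and psbH, correlated at 0.04, and petD and rpoA, which follows it, at -0.43. PsbZ and rps14 stood at -0.41, ndhF and rpl32 at -0.20, and rpoC1 and rpoB, which belong to 1 operon, at 0.12. PsbT and psbN, which lies on the opposite strand, stood at -0.04. Of the 16 pairs, 7 hold rps14, petD, ndhF, petN or rpoB and 9 hold none of them, among these petG and psaJ (-0.15), psbN and psbH (-0.15), psbM and psbD (-0.02), psbA and matK (0.01) and ndhG and ndhI (0.03). RpoB and petN stood at 0.58.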

How the data were processed

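Affymetrix ATH1 signals of 60 arrays were taken as the authors deposited them: linear intensity values from MAS5, per the submitters' processing notes, which give no version. Each array's trimmed mean (2% off each end) was between 100.006 and 100.011, tested on the files. How the RNA was primed and labelled is not given in the sources used here, saturation could not be checked, and no counts or depth exist for arrays, so the number of arrays limits the precision. Deposited intensities were analysed as log2(signal + 6.14), where the added constant is the middle value of the arrays' 20th percentiles, with no further normalisation.

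A probe set entered the test when its signals exceeded its arrays' 40th percentile on every array of at least 1 set (15808 of 22810). A limma fit of 20 group means (limma 3.58.1, R 4.3.3, empirical Bayes with an intensity trend) gave all comparisons, with Benjamini-Hochberg adjustment over all tested probe sets. The fit used no replicate block. The code was tested on simulated data. Figures were drawn with matplotlib 3.10.9.

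Genes were named from the platform annotation (13513 probe sets with 1 gene, 503 with several, 8794 not listed), and gene order came from the RefSeq TAIR10.1 table. The array build is not named there, so no coordinates are given. The members, classes and lists were chosen with earlier results of these data known. Values on every array are given for the genes with the widest spans of a class and for up to 5 called genes per direction of a comparison, and every member may be named. A locus-tag rule for mitochondrial probe sets found 0, so 22 were taken by symbol (nad, cox, cob, ccb, matR), of which 20 passed the filter. Alternatives were other pseudocounts, filters and scalings, a replicate block, fits of the compared groups alone, rosette leaf 2 as partner, and leaving out each array in turn.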

Additional observations from a re-analysis of the deposited data

Results flagged for a closer look

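The effect of gl1T differed between leaf 12 and leaf 4 by the interaction test of the limma fit for 3 plastid-encoded genes. PsbD had a difference of 1.63 (log2, SE 0.45), with an effect of 1.40 in leaf 12. PsbC had a difference of 1.14 (SE 0.38) and rpoB one of 1.13 (SE 0.36). All 3 genes were lowest on replicate 2 of Col-0 leaf 12, the array that stands apart (psbD at 207.9, psbC at 466.5 and rpoB at 43.9). Without that array the differences were 0.74, 0.25 and 0.55, with adjusted p of 0.0587, 0.272 and 0.158, and none was called.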

How the results depend on the processing

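A pseudocount of 1, the filter and a replicate block had little effect on the counts of called plastid-encoded genes. With a replicate block every count was as reported (15 in senescing, 9 in sucrose leaves). Arrays with the same letter did not deviate together, with a median correlation of -0.0005 over 551 pairs, 5 of them over 0.1, against -0.0012 over 1159 pairs of different letters, so the letters were not taken as pairing. No called gene changed sign under these settings, but class medians did, 10 of 56 with quantile normalisation, 19 of 56 with arrays centred on their plastid-encoded median, 3 of 12 against rosette leaf 2 alone and 1 of 56 with the array of doubtful label moved. With a pseudocount 4 times larger the cauline count was 0, and 8 of 46 calls fell under the threshold of size. These were psbD in cauline leaves, ndhF and ndhH in senescing leaves, rpl20 and ndhE in sucrose leaves, and rpoB in the interaction. PetD in short-day rosettes (-0.89) and rps14 in gl1T leaf 12 (-0.93) were the others. With quantile normalisation the counts were 3 for cauline, 1 for leaf 4, 2 for leaves 1 and 2 against cotyledons, 1 for short-day set 89 against 87, 13 for senescing (7 higher and 6 lower), 5 for leaf position, 7 for sucrose leaves and 2 each for gl1T in leaf 12 and for the interaction. That scaling moved the median of all tested probe sets by less than 0.1, but that of the plastid-encoded genes in senescing leaves from -0.59 to -0.13, and it moved 25 of 56 class medians. Centring each array on its plastid-encoded median moved 32 of 56. With the array of doubtful label in set 14 moved to leaf 4, the leaf 4 count was 1. In fits of the compared groups alone the gl1T count in leaf 12 was 1 and that of the interaction 0. Against rosette leaf 2 alone the counts were 5 in senescing, 4 in cauline and 12 in short-day sets. Leaving out each array in turn gave counts from 57 to 60 across the 20 sets, 6 to 7 for leaf position, 14 to 18 in senescing, 0 to 2 in cauline, 0 to 2 for the petiole and for distal against proximal blade, 1 to 2 for leaf 4, 0 to 2 for leaves 1 and 2 against cotyledons, 0 to 0 for gl1T in leaf 4, 1 to 9 for gl1T in leaf 12, 0 to 8 for the interaction, 3 to 3 for short-day rosettes, 1 to 2 for set 89, 0 to 0 for set 90 and 7 to 9 in sucrose leaves. The cause of these changes was not tested. Signals near the pseudocount, such as ndhF in sucrose leaves, limit the size of a measured decrease.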
